A study of Lithobates pipiens with 72 samples.

Results

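Nitroguanidine (NQ) is a nitrogen-rich propellant and insensitive-munition ingredient. The comparison described here is the uppermost dose step of an NQ exposure of leopard frog (Rana pipiens, also Lithobates pipiens) tadpoles, 3750 against 750 mg/L. It rests on 8 libraries of the 72 in the whole series, 4 at each dose, chosen by the dose given in the sample labels and not by any measured value. Both groups were larvae aged 7 to 10 d at the start, hatched from eggs of a commercial supplier, and they were kept for 96 h in dechlorinated tap water with NQ dissolved directly in it, without a carrier solvent. On a molar scale the doses were 7.2 and 36 mmol/L. No allele, transgene or other agent distinguished the groups. Each library (A to D) was whole-body poly-A RNA pooled from 5 tadpoles of 1 beaker of 10, so a library averages over animals and over every tissue, and the 4 libraries of a dose were 4 separate beakers. The NQ experiment also had an unexposed group and groups at 30 and 150 mg/L, which are used below to place the step and to estimate the spread. The doses are nominal.

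The values were estimated counts for 19128 transcripts, each named after its closest Xenopus protein, and 11279 of them carried an informative name. Library totals were 10851828, 15986953, 9123316 and 6610048 counts at 750 mg/L (A to D) and 9205935, 11019925, 8756036 and 10720070 counts at 3750 mg/L. Levels are in CPM, counts scaled to a common library total over the transcripts tested, with TMM scaling of the libraries. Differences are log2 fold changes of 3750 over 750 mg/L ± their standard error. Adjusted p values come from the quasi-likelihood test of edgeR, Benjamini-Hochberg adjusted over all transcripts tested, and "rose" or "fell" is written for values below 0.05. The deposited names come from another genus, so a name marks the closest Xenopus protein and not a proven frog orthologue.

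As background, much of what a tadpole's liver makes is secreted: fibrinogen and the complement proteins that circulate in plasma, protease inhibitors of the macroglobulin family, and the enzymes that handle steroids, drugs, fatty acids and nitrogen. Larval skin carries black melanophores, whose pigment is built from tyrosine by tyrosinase and its relatives inside melanosomes. Both cell types are sampled together with muscle, gut, blood, brain and skin in a whole-body library. In such a mixture fewer cells of a type and less RNA per cell cannot be told apart.

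Between 750 and 3750 mg/L, 115 of 12969 transcripts changed (0.887%), 52 upward (0.401%) and 63 downward (0.486%), and the median over all transcripts was -0.01. An unadjusted p under 0.05 was found for 1463 transcripts (11.3%). Named transcripts accounted for 20 of the rises and 34 of the falls, which is 0.256% and 0.436% of the 7805 named transcripts tested, 0.692% together. The rises included transcripts named after proteins typical of liver (fibrinogen beta chain-like, LEG1, cytochrome P450 2C20-like), an alpha-2-macroglobulin-like protein, a urea transporter and allantoinase. The tissue they came from was not measured. Among the falls were 3 pigment-cell genes, a mast cell protease, a chemokine receptor, splicing activators of the transformer-2 family, and a group of transcripts whose counts ended at or near 0. In 110 of the 115, all 4 libraries of one dose lay beyond all 4 of the other, against 834 of all transcripts tested (6.43%). The calls were made on these same libraries, so the separation follows largely from the selection and is no separate support. Of the changes, 51 were at least 2-fold (0.393%), and the smallest was 0.28 in size.

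The number of transcripts called depended strongly on which libraries were fitted. When only the 8 libraries compared were fitted, 6 of 11311 transcripts passed, and 4 of these were among the 115; the named ones among the 4 were ULK2-like kinase and dispanin subfamily A member 2b-like. Leaving out a library at 3750 mg/L gave 21 calls without A, 166 without B, 69 without C and 35 without D, and at 750 mg/L 58 without A, 38 without B, 97 without C and 45 without D. The libraries were spread over 3 sequencing lanes, with A, C and D of the lower dose and A and B of the upper dose in lane 1. Lane as a term gave 70 calls, of which 65 were among the 115. Comparing only those 5 lane 1 libraries gave 3 calls, LEG1, enoyl-CoA delta isomerase 2 and 1 transcript without a name. The control, 30 and 150 mg/L libraries of all lanes stayed in that fit for the spread. All 115 changes had the same sign in the lane 1 libraries. These are part of the 8 libraries that gave the calls, so the equal sign is no separate support. Of the 54 named changes, 8 remained called whichever of the 8 libraries was left out: LEG1, transmembrane 4 superfamily member 4, unconventional myosin-Id-like, dffa, mast cell protease 1A-like, Rpl15, cathepsin L2 and dispanin 2b-like. The other 46 lost the call without at least 1 library.

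Lower down the dose series, the number of calls depended on the test. From 150 to 750 mg/L edgeR called 0 of 12969 transcripts (0%), with 1000 at an unadjusted p under 0.05 (7.71%) and 104 calls by the DESeq2 Wald test. The step from the control to 30 mg/L likewise gave 0 calls (0%), with 1057 at an unadjusted p under 0.05 (8.15%) and 32 by DESeq2. Between 30 and 150 mg/L 51 transcripts were called (0.393%), 7 higher (0.0540%) and 44 lower (0.339%). That step had 1602 at an unadjusted p under 0.05 (12.4%) and 408 by the DESeq2 Wald test, close to the 1463 and 439 between 750 and 3750 mg/L. The comparison of 750 mg/L with the control gave 0 calls (0%), 875 at an unadjusted p under 0.05 (6.75%) and 76 by the DESeq2 Wald test, and that of 3750 mg/L with the control gave 581 calls (4.48%). The comparisons with the control share libraries with the step itself. None of these counts tests whether one step differs from another.

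Transcripts named after secreted proteins were among the larger rises. Fibrinogen beta chain-like, a subunit of the clotting protein, measured 3543, 3147, 4144 and 3027 CPM in libraries A to D at 750 mg/L and 10130, 5452, 5776 and 12030 CPM at 3750 mg/L. Libraries A and D of the upper dose were the highest, and the groups did not overlap. It rose by 1.27 ± 0.23 (adjusted p = 0.0179). The call was lost without A or D of the upper dose or B or D of the lower one, with a largest adjusted p of 0.0816. The control mean was 4230 ± 998 CPM (SD, n = 4), between those at 750 and 3750 mg/L.

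LEG1, a secreted protein named for its liver-enriched expression in zebrafish, measured 25.3, 31.1, 24.96 and 28.03 CPM at 750 mg/L and 79.1, 66.2, 39.7 and 78.7 CPM at 3750 mg/L. Every library of the upper dose was above every library of the other 4 NQ groups, library C least so. It rose by 1.27 ± 0.20 (adjusted p = 0.0090). With only the lane 1 libraries of both doses compared, the difference was 1.48 (adjusted p = 0.0371). That comparison left out B at 750 mg/L and C and D at 3750 mg/L, so the lowest library of the upper dose was not in it. The alpha-2-macroglobulin-like protein 1, a protease inhibitor that traps its target, went from 119, 117, 131 and 89.5 to 346, 191, 205 and 283 CPM and rose by 1.17 ± 0.26 (adjusted p = 0.0441). It lost the call without any one of 7 of the 8 libraries, and against the control its difference was 0.74 (adjusted p = 0.131).

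**Figure D1:**
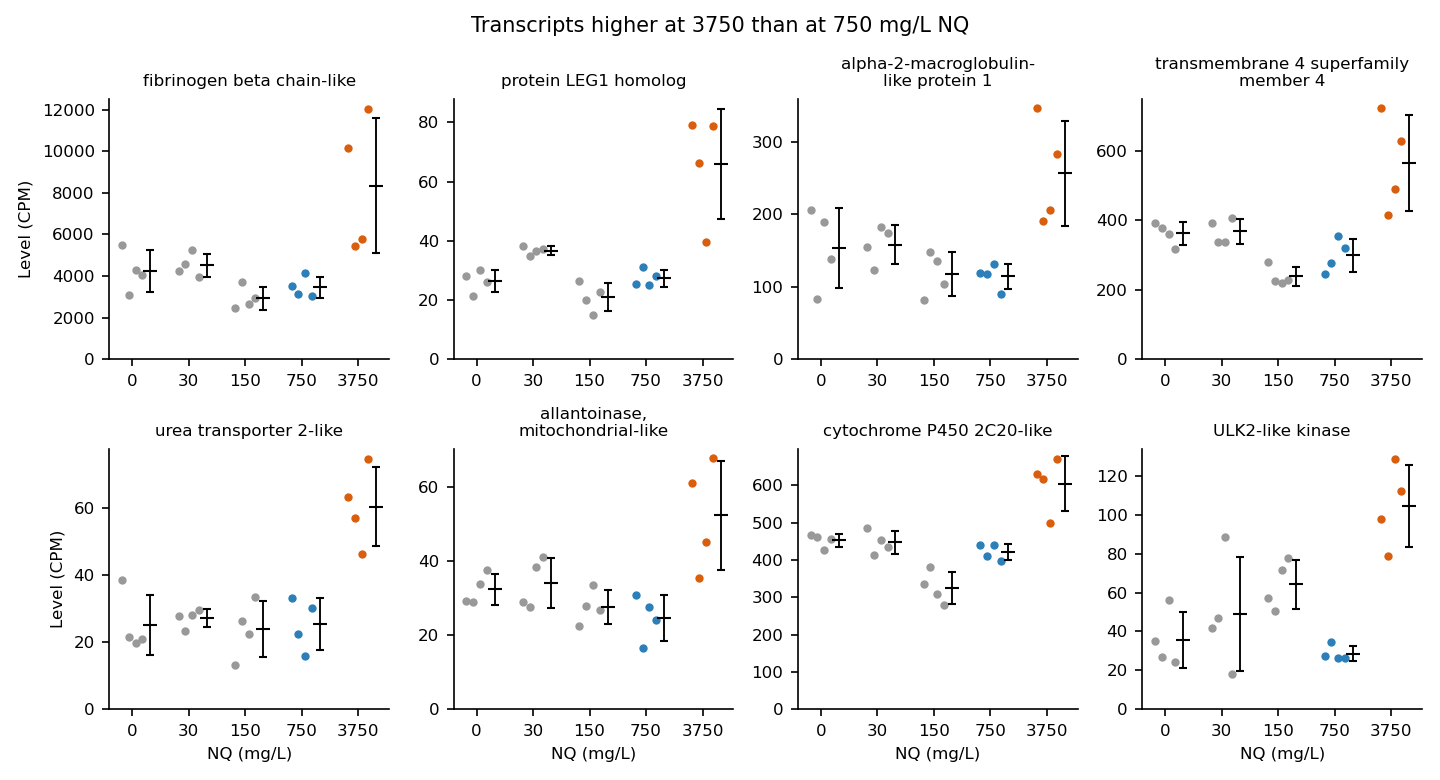
Level in CPM (y axes, from 0) of 8 transcripts called higher, against the nominal NQ dose in mg/L (x axes). Points are the 4 libraries of a dose, blue at 750 and orange at 3750 mg/L, bars are the mean ± SD; LEG1 lies between 39.7 and 79.1 CPM at 3750 mg/L and at or below 38.2 CPM elsewhere, while for ULK2-like kinase 1 library at 30 mg/L, at 88.7 CPM, lies within the range at 3750 mg/L.

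Complement and coagulation genes, the plasma cascades of opsonisation and clotting, lay mostly above 0. Of 25 measured members 1 rose, 0 fell and 24 did not pass, while the DESeq2 Wald test called 7 higher; 22 had values above 0, and the list median was 0.65 against -0.01 for all transcripts. By comparison 48.6% of named transcripts lay above 0. All gene lists used here were chosen with earlier results of these data known, so their counts and medians describe and do not test. In 7 members the upper-dose libraries were all above the lower-dose ones, where 3.06% of all transcripts did so in that direction. Complement C3, the hub protein of the cascade, was 2697, 1847, 2725 and 1655 CPM at 750 mg/L and 4574, 2969, 3756 and 5237 CPM at 3750 mg/L (0.89 ± 0.23, adjusted p = 0.0774). Kininogen-1, the bradykinin precursor, differed by 0.69 ± 0.17 (adjusted p = 0.0702) and the lectin-pathway protease mannan-binding lectin serine peptidase 2 by 0.65 ± 0.17 (adjusted p = 0.0826). Summed over the list, the level was 6456 to 9467 CPM at 750 mg/L and 11480 to 21120 CPM at 3750 mg/L, and 7511 to 11530 CPM in the control, so the ranges did not overlap between the 2 doses but did between the control and the upper dose. At 30 mg/L the sums, 10170 to 12630 CPM, also overlapped those at 3750 mg/L.

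The list of plasma carriers, which here holds LEG1, macroglobulins, transferrins, fetuin and transthyretin, had 11 measured members, of which 2 rose, 0 fell and 9 did not pass (3 higher by DESeq2). Its median was 0.64, and 9 members were above 0. Fetuin-B, a liver-secreted protein, differed by 0.64 ± 0.26 (adjusted p = 0.36). Serotransferrin-B, the iron carrier, and transthyretin, the thyroid hormone carrier, differed by 0.32 (adjusted p = 0.626) and 0.24 (adjusted p = 0.733). The summed level of the list ran from 2052 to 2778 CPM at 750 mg/L and from 2388 to 4036 CPM at 3750 mg/L, and these ranges overlapped because library C of the upper dose had 2388 CPM. Both lists are dominated by hepatocyte products, so they also serve as marker lists of liver cells. The urea cycle and nitrogen list, which holds liver enzymes too, had 5 of 11 members above 0 and a median of -0.07. Markers of other digestive tissue lay mostly above 0. Of 11 pancreatic enzyme genes 10 had values above 0 (median 0.42, 0 called, 1 at an unadjusted p under 0.05, 0 by DESeq2), with sums of 5666 to 9218 and 6768 to 12230 CPM. For 10 intestinal brush border genes 8 were above 0 (median 0.14, 0 called, 1 at an unadjusted p under 0.05, 0 by DESeq2), with sums of 2597 to 4698 and 3829 to 5725 CPM. Their part in the liver values was not tested.

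Transmembrane 4 superfamily member 4, a tetraspanin-like membrane protein, measured 244, 277, 355 and 319 CPM at 750 mg/L and 723, 415, 491 and 627 CPM at 3750 mg/L. The groups did not overlap, and A and D were again the upper pair. It rose by 0.92 ± 0.15 (adjusted p = 0.0107).

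Cytochrome P450 genes of families 1 to 3, the oxygenases that hydroxylate drugs and steroids, showed 1 rise and 0 falls among 14 measured members, with 13 that did not pass (4 higher by DESeq2); 12 were above 0 and the median was 0.45. Cytochrome P450 2C20-like was 439, 412, 441 and 397 CPM at 750 mg/L and 631, 618, 499 and 671 CPM at 3750 mg/L, without overlap (0.52 ± 0.10, adjusted p = 0.0180). Cytochrome P450 3A29-like, 2F2-like and 2G1-like differed by 0.68 ± 0.16 (adjusted p = 0.0532), 0.50 ± 0.14 (adjusted p = 0.109) and 0.62 ± 0.18 (adjusted p = 0.142). In 6 of the 14 members, these included, every upper-dose library was above every lower-dose one, where 3.06% of all transcripts did so. For 2F2-like, control library D (150 CPM) lay above library B at 3750 mg/L (141 CPM). The 3A29-like control reached 505 CPM, against 508 CPM in library C at 3750 mg/L. Control libraries of 2G1-like, at 23.9 to 38.5 CPM, lay below those at 3750 mg/L, at 47.3 to 61.0 CPM. A steroid enzyme that is not a cytochrome P450, 3-alpha-hydroxysteroid dehydrogenase, which reduces steroid ketones, rose by 0.56 ± 0.10 (adjusted p = 0.0190), from 509 ± 56.1 to 747 ± 84.2 CPM (SD, n = 4). Its control mean was 619 ± 67.8 CPM (SD, n = 4), and 3750 mg/L differed from the control by 0.27 (adjusted p = 0.175). At an unadjusted p under 0.05 the cytochrome P450 list had 5 members higher and 0 lower, where 11.3% of all transcripts reached that value. The 19 conjugation enzymes had 0 calls and a median of 0.11 (2 higher and 2 lower at an unadjusted p under 0.05, 1 by DESeq2). Likewise, 25 antioxidant genes and targets of NRF2, the oxidative-stress regulator, had 0 calls and a median of -0.01. Of these, 2 were higher and 6 lower at an unadjusted p under 0.05, and 2 were called by DESeq2. Of 31 heat shock and folding genes 0 were called (2 at an unadjusted p under 0.05, 0 by DESeq2; median -0.04).

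A urea transporter and 2 enzymes of purine breakdown rose. Urea transporter 2-like, a membrane channel for urea, measured 33.2, 22.3, 15.8 and 30.2 CPM at 750 mg/L and 63.2, 57.1, 46.4 and 74.7 CPM at 3750 mg/L. It rose by 1.25 ± 0.28 (adjusted p = 0.0441) without overlap, although the call was lost with any 1 of the 8 libraries left out. Of 11 urea cycle and nitrogen genes it was the 1 that rose; 0 fell, 10 did not pass (1 higher by DESeq2), and the list median was -0.07. Argininosuccinate synthase, a urea cycle enzyme, differed by 0.40 ± 0.13 (adjusted p = 0.208) and ornithine transcarbamylase, the mitochondrial enzyme of the cycle, by 0.84 ± 0.30 (adjusted p = 0.262).

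Allantoinase, which opens allantoin in the breakdown of urate in frogs and fish, was 30.9, 16.4, 27.5 and 24.1 CPM at 750 mg/L and 61.1, 35.6, 45.2 and 67.8 CPM at 3750 mg/L. It rose by 1.08 ± 0.22 (adjusted p = 0.0267), again highest in A and D, and against the control differed by 0.70 (adjusted p = 0.0875). Cytosolic purine 5'-nucleotidase, which removes phosphate from purine nucleotides, rose by 0.45 ± 0.10 (adjusted p = 0.0411), from 179 ± 27.7 to 244 ± 9.97 CPM (SD, n = 4). In the opposite direction, the enzyme named AICAR formyltransferase/IMP cyclohydrolase, which completes new purine synthesis, fell by 0.45 on the log2 scale (± 0.10, adjusted p = 0.0354). The list of 5 purine breakdown genes was assembled after their values were seen and its 2 rises are given as a description.

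Fatty acid oxidation had 1 rise among 14 members, with 13 not passing, 4 called higher by DESeq2 and a median of 0.23. Enoyl-CoA delta isomerase 2, which prepares unsaturated fatty acids for oxidation, was 208, 201, 214 and 214 CPM at 750 mg/L and 327, 310, 220 and 320 CPM at 3750 mg/L. Library C stayed near the lower dose, and the transcript rose by 0.49 ± 0.10 (adjusted p = 0.0264). Peroxisome proliferator-activated receptor gamma, a lipid-sensing transcription factor, differed by 0.46 ± 0.13 (adjusted p = 0.129) and carnitine O-acetyltransferase-like by 0.44 ± 0.13 (adjusted p = 0.157).

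The largest named rise outside these groups was serine/threonine-protein kinase ULK2-like, a relative of the kinase that starts autophagy. It measured 27.1, 34.5, 26.5 and 26.3 CPM at 750 mg/L and 98.1, 79.0, 129 and 113 CPM at 3750 mg/L, without overlap. It rose by 1.87 ± 0.35 (adjusted p = 0.0195). Its dose series was uneven, with means of 35.5 ± 14.4 in the control, 48.9 ± 29.3 at 30 mg/L and 64.3 ± 12.5 CPM at 150 mg/L (SD, n = 4), so 750 mg/L had the lowest mean of the 5 groups. Tandem C2 domains nuclear protein-like rose by 1.42 ± 0.28 (adjusted p = 0.0255) and cell surface glycoprotein MUC18-like, an adhesion molecule of blood vessels, by 1.16 ± 0.26 (adjusted p = 0.0441). Smaller rises of 0.40 to 0.62 were found in a mitochondrial carrier (solute carrier family 25 member 34-like), RNF43, a ubiquitin ligase that removes Wnt receptors, von Willebrand factor A domain containing 8, zinc finger CCCH domain-containing protein 6-like, lysosomal-associated transmembrane protein 4A-like, ethanolamine kinase 1-like and protein ABHD14A-like. Against the control RNF43 differed at 3750 mg/L by 0.23 (adjusted p = 0.311).

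Of the pigment-cell genes 3 fell. Dopachrome tautomerase, the enzyme that converts dopachrome on the way to eumelanin, measured 342, 337, 273 and 244 CPM at 750 mg/L and 111, 211, 113 and 83.3 CPM at 3750 mg/L. The groups did not overlap, and library B was the highest of the upper dose. It fell by 1.20 on the log2 scale (± 0.23, adjusted p = 0.0191). Tyrp1, the tyrosinase-related protein that acts beside it in the melanosome, went from 470, 435, 325 and 303 CPM to 167, 317.4, 147 and 115 CPM and fell by 1.04 (± 0.23, adjusted p = 0.0443); library B of the upper dose, at 317.4 CPM, lay above the lowest library of the lower dose. Sodium/potassium/calcium exchanger 5-like, whose relative in zebrafish and humans sets the lightness of pigment, went from 65.6, 59.9, 43.6 and 51.4 to 24.8, 43.01, 31.0 and 22.4 CPM and fell by 0.86 (± 0.19, adjusted p = 0.0408). With 1 of the 8 libraries left out at a time, the calls of dopachrome tautomerase, Tyrp1 and the exchanger remained in 3, 1 and 2 of the 8 fits.

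The list of melanin and pigment cell genes was put together after values of these data were seen, so its counts describe and do not test. Of its 7 measured members 3 fell, 0 rose and 4 did not pass, all 7 had values below 0 and the median was -0.86. Rab-38-like, a small GTPase that carries pigment enzymes to melanosomes, differed by -0.38 ± 0.13 (adjusted p = 0.202). Summed levels of the list were 1076, 1053, 841 and 837 CPM at 750 mg/L and 476, 728, 470 and 371 CPM at 3750 mg/L. In the control they ran from 944 to 1006 CPM, at 30 mg/L from 819 to 1127 CPM and at 150 mg/L from 1048 to 1202 CPM, so the 4 libraries at 3750 mg/L were the lowest of all 20. Beside this, 20 keratin and epidermis genes had 0 calls (6 at an unadjusted p under 0.05, 1 by DESeq2; median -0.17), and keratin 5, type II, of basal skin cells, was 1520, 1538, 1049 and 1134 CPM against 857, 947, 398 and 393 CPM (-1.01 ± 0.32, adjusted p = 0.167). The part of a change in skin in the pigment values was not tested.

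**Figure D2:**
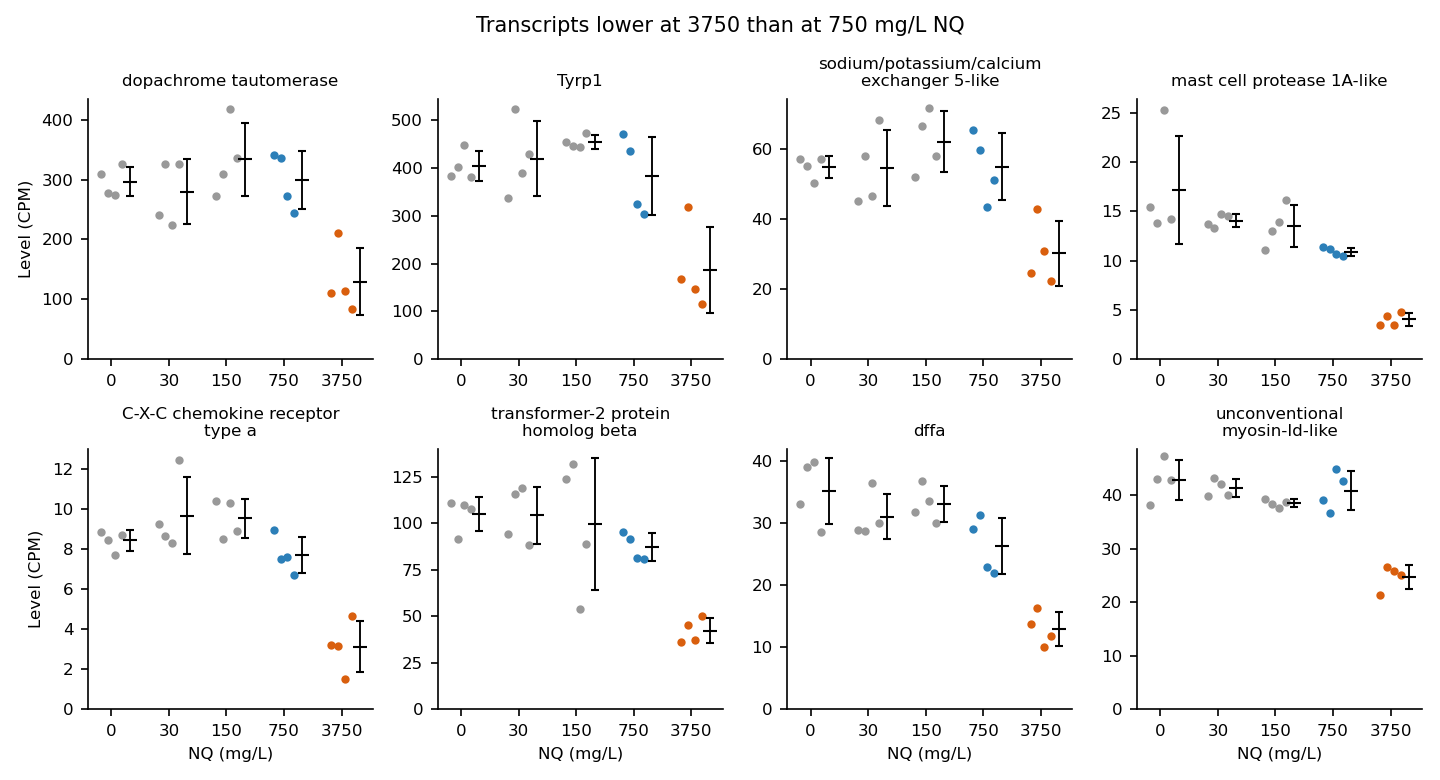
Level in CPM (y axes, from 0) of 8 transcripts called lower, against the nominal NQ dose in mg/L (x axes). Points are libraries (blue 750, orange 3750 mg/L), bars the mean ± SD; dopachrome tautomerase lies between 83.3 and 211 CPM at 3750 mg/L, and mast cell protease 1A-like declines over the doses from 17.2 to 4.06 CPM in its group means.

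Immune transcripts that fell were few and scarce. Mast cell protease 1A-like, named for a granule protease of mast cells in mammals, measured 11.4, 11.2, 10.6 and 10.5 CPM at 750 mg/L and 3.53, 4.41, 3.45 and 4.84 CPM at 3750 mg/L, with little spread within either group. It fell by 1.42 on the log2 scale (± 0.21, adjusted p = 0.0053). Its group means were 17.2, 14.1 and 13.6 CPM in the control and at 30 and 150 mg/L, and the difference of 750 mg/L from the control was -0.66 and not called. C-X-C chemokine receptor type a went from 8.92, 7.50, 7.61 and 6.72 to 3.18, 3.14, 1.52 and 4.65 CPM and fell by 1.30 (± 0.27, adjusted p = 0.0287).

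The wider immune lists held few calls by edgeR. Among 16 myeloid and mast cell genes 1 fell, 0 rose and 15 did not pass (1 higher and 2 lower by DESeq2; median -0.29), with summed levels of 468 to 548 CPM at 750 mg/L and 445 to 519 CPM at 3750 mg/L. The integrin alpha-M-like subunit of phagocytes differed by 0.31 ± 0.09 (adjusted p = 0.129), and interferon regulatory factor 8, a regulator of macrophage development, by -0.46 ± 0.15 (adjusted p = 0.178). For 54 inflammation and acute phase genes 1 fell and 0 rose (5 higher and 7 lower at an unadjusted p under 0.05, 2 higher and 5 lower by DESeq2; median 0.05). For 20 interferon and antigen presentation genes 0 passed (3 at an unadjusted p under 0.05, 0 by DESeq2; median -0.29), and for 10 lymphoid genes 0 passed (0 at an unadjusted p under 0.05, 0 by DESeq2; median -0.30).

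RNA-binding and translation genes supplied further falls. Transformer-2 protein homolog beta, a splicing activator, measured 95.3, 91.8, 81.2 and 80.6 CPM at 750 mg/L and 36.1, 45.3, 37.4 and 50.2 CPM at 3750 mg/L (-1.05 ± 0.21, adjusted p = 0.0245). The transcript named splicing factor, arginine/serine-rich 10, an older name of the same factor, fell by 0.44 (± 0.09, adjusted p = 0.0264), from 194 ± 6.20 to 142.9 ± 23.2 CPM (SD, n = 4). Reads of related transcripts can be shared in estimated counts, so their split is uncertain. In the list of 41 splicing and RNA-binding genes, matched by name and holding the second of these transcripts but not the first, 1 fell, 0 rose and 40 did not pass (1 higher and 3 lower by DESeq2), 28 were below 0 and the median was -0.30.

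Eukaryotic translation initiation factor 3, subunit 8, part of the complex that loads ribosomes on mRNA, was 1587, 1546, 1586 and 1255 CPM at 750 mg/L and 982, 1089, 1134 and 865 CPM at 3750 mg/L. It fell by 0.55 (± 0.10, adjusted p = 0.0179) and was the 1 called member of 18 translation factors, of which 13 were below 0 and 17 did not pass; DESeq2 called 5 lower. That list's median was -0.27, and in 7 members the upper-dose libraries were all below the lower-dose ones, where 3.37% of all transcripts were so. Subunits L and M-like of the same complex differed by -0.81 ± 0.24 (adjusted p = 0.14) and -0.26 ± 0.08 (adjusted p = 0.16). Of 22 cytosolic ribosomal protein genes 20 were below 0, with a median of -0.28. The 3 that fell were Rpl15, S23 and S11, described below as near-absent transcripts, and DESeq2 called 5 lower. Summed over that list the level was 53530 to 65570 CPM at 750 mg/L and 47650 to 51750 CPM at 3750 mg/L. For 26 mitochondrial ribosomal protein genes 0 passed (1 at an unadjusted p under 0.05, 0 by DESeq2; median -0.10).

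Other falls touched single functions. Unconventional myosin-Id-like, a membrane-linked motor, went from 39.1, 36.8, 44.9 and 42.8 to 21.4, 26.6, 25.9 and 25.1 CPM and had the smallest adjusted p of the named transcripts (-0.72 ± 0.10, adjusted p = 0.00505). The transcript named dffa, the inhibitor of the nuclease that cuts DNA in apoptosis, fell by 1.03 (± 0.17, adjusted p = 0.0097), from 26.3 ± 4.58 to 12.9 ± 2.74 CPM (SD, n = 4). ATG3, the conjugating enzyme of autophagosome growth, fell by 0.84 (± 0.17, adjusted p = 0.0264); its difference at 750 mg/L from the control was -0.70 and not called, and that at 3750 mg/L was -1.54. Cartilage-associated protein-like, part of the complex that modifies prolines in collagen, was 119, 126, 139 and 114 CPM at 750 mg/L and 72.7, 104, 78.1 and 97.5 CPM at 3750 mg/L and fell by 0.50 (± 0.10, adjusted p = 0.0294). It was the 1 call among 89 collagen and matrix genes, whose median was 0.00 (2 lower by DESeq2). Falls of 0.28 to 0.70 were also called for the cargo receptor Tmp21, Mediator subunit 8-A, transmembrane protein 18-like, glutamate-rich WD repeat containing 1, the oligosaccharyltransferase subunit ostc-B, tRNA (cytosine(38)-C(5))-methyltransferase, tubulin alpha 1, COP9 signalosome subunit 6 and the farnesyltransferase subunit fnta.

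**Figure D3:**
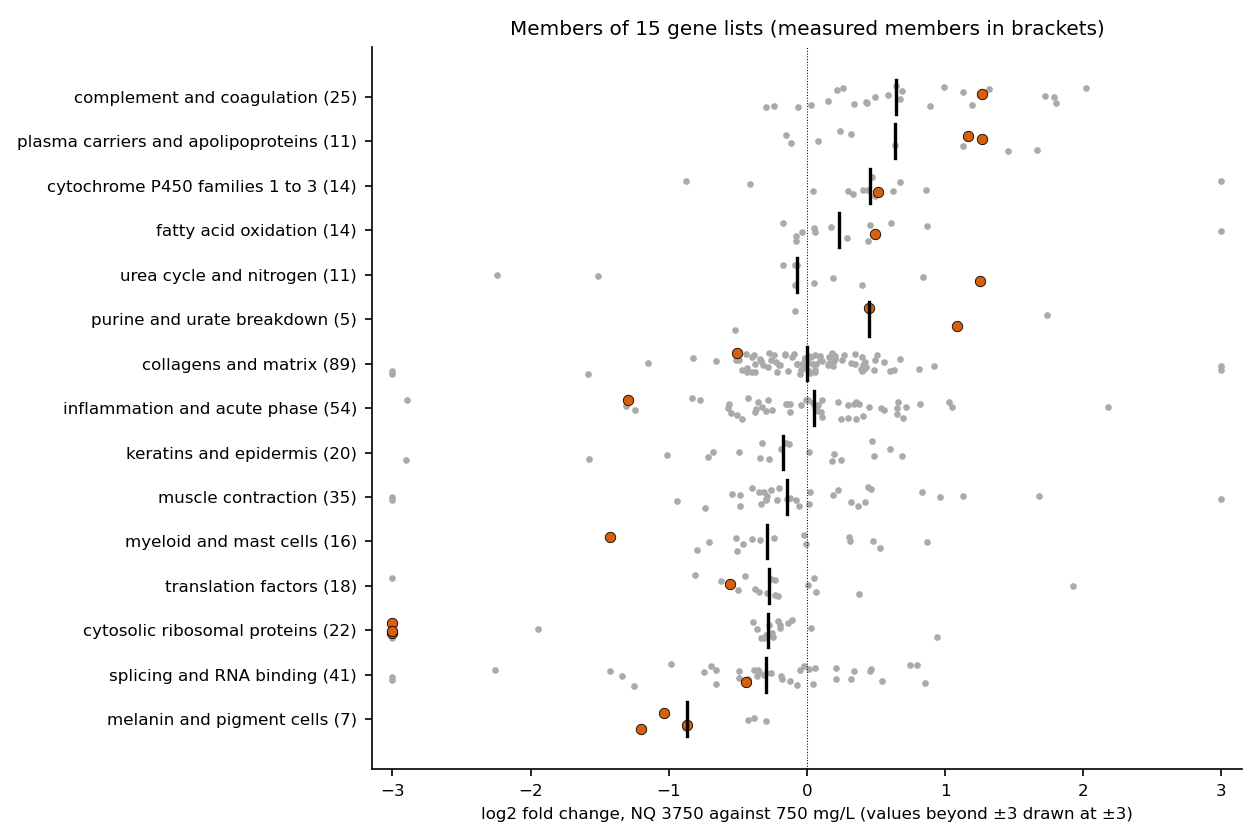
Log2 fold changes of 3750 over 750 mg/L (x axis, values beyond ±3 drawn at ±3) for the measured members of 15 gene lists (rows). Grey points did not pass, orange points passed at adjusted p under 0.05, black bars are list medians; complement and coagulation sits at 0.65 and melanin and pigment cells, assembled after seeing values, at -0.86.

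Lists of tissue and housekeeping genes mostly held no call. In all, 28 of the 43 lists with at least 5 measured members had 0 calls by edgeR. Over all transcripts 11.3% had an unadjusted p under 0.05. Among 35 muscle contraction genes 0 passed (7 at an unadjusted p under 0.05, 2 by DESeq2; median -0.14), with myosin-4-like at -0.74 ± 0.20 (adjusted p = 0.102) and titin-like at 1.13 ± 0.33 (adjusted p = 0.143). For 21 lens and photoreceptor genes 0 passed (4 at an unadjusted p under 0.05, 1 by DESeq2; median -0.16), and gamma-crystallin 1-like differed by -0.67 ± 0.19 (adjusted p = 0.123). Of 94 neuron and myelin genes 0 passed (4 at an unadjusted p under 0.05, 0 by DESeq2; median 0.07). In the 55 water and ion transport genes 0 passed (11 at an unadjusted p under 0.05, 3 by DESeq2), with claudin-15-like, a gut tight-junction protein, at 0.94 ± 0.30 (adjusted p = 0.176) and aquaporin-4-like at -0.49 ± 0.13 (adjusted p = 0.112). Globin and haem genes numbered 6 with 0 passing (1 at an unadjusted p under 0.05, 0 by DESeq2), and their summed level ran from 7938 to 11090 CPM at 750 mg/L but from 3961 in C to 19510 in D at 3750 mg/L.

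A separate group of falls went almost to nothing. In 15 of the 63 falls the 4 libraries at 3750 mg/L held at most 3 counts together, and 11 of these carried a protein name. Tubulin, beta 2C summed to 367 counts in the lower group and 0 in the upper one. With the upper group set to the limit that a count of 0 allows, 3 counts in all 4 libraries, that is at least 114-fold lower, but at least 62.1-fold without library D of 750 mg/L, which held the highest level. Actin, cytoplasmic type 5 had 229 and 0 counts (at least 71.1-fold lower), S-adenosylmethionine synthase, which makes the cell's methyl donor, 120 and 0 (at least 37.3-fold lower), and ribosomal protein S11 57 and 0 (at least 17.7-fold lower). Cathepsin L2, a lysosomal protease, had 525 counts and 1 count, a depth-scaled ratio of 489 with a 95% counting interval from 87.4 to 19350. Dispanin subfamily A member 2b-like, of the interferon-induced transmembrane family, had 572 and 2 counts (ratio 266, 73.4 to 2205), Actin, cytoplasmic 2 had 411 and 3 (ratio 128, 43.4 to 621), and Rpl15 had 322 and 3 (ratio 100.0, 33.9 to 487). Centrosomal protein of 135 kDa had 161 and 1 count, ribosomal protein S23 had 236 and 2, and atp5a1 had 153 and 2. For the centrosomal transcript the 30 mg/L NQ group, too, was at 0 in each library, and MeNQ libraries ran from 0 to 12.3 CPM. Library D of the NQ control was at 0 for S23, S11, S-adenosylmethionine synthase and Actin, cytoplasmic type 5. Control library A had 1.77 to 4.73 CPM for these. The difference of 3750 mg/L from the control was not called for S23 (-4.23, adjusted p = 0.0596). The intervals and floors given cover counting error only. With 1 of the 8 libraries left out at a time, S11 and the centrosomal transcript lost the call in 8 fits. Tubulin beta 2C, atp5a1 and S23 lost it in 7. Actin, cytoplasmic type 5 and S-adenosylmethionine synthase lost it in 2, and Actin, cytoplasmic 2 in 1. Rpl15, cathepsin L2 and dispanin 2b-like kept it in all 8.

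Actins and tubulins belong to families of similar genes, so for them the assignment of reads to 1 transcript is uncertain. Of the 11 named ones, atp5a1 alone had another tested transcript of the same name. That transcript differed by -0.15 ± 0.53 (adjusted p = 0.996). The near-absent transcripts were also rare at 750 mg/L, where the 11 named ones had means of 1.27 to 12.8 CPM. They were uneven too, with tubulin beta 2C at 6.04, 0.57, 10.3 and 29.1 CPM. Summed over the 15, the level was 58.5, 87.8, 72.0 and 142.7 CPM in libraries A to D at 750 mg/L and 0.23, 0.10, 0.51 and 0.73 CPM at 3750 mg/L, while the control ran from 29.3 to 154 CPM. Over the MeNQ step the same 15 were also lower, with sums of 28.2 to 72.7 CPM at 851 and 7.39 to 23.6 CPM at 4225 mg/L. The MeNQ control ran from 3.39 to 46.6 CPM, across the range at 4225 mg/L. Groups that lack a set of transcripts were not limited to the highest dose. Counting transcripts with at most 3 counts in 1 NQ group and at least 50 in each of the other 4 gave 26 at 3750, 6 at 750, 12 at 150 and 29 at 30 mg/L and 12 in the control; in the MeNQ experiment the corresponding range was 7 to 27. The cause of such gaps was not tested.

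**Figure D4:**
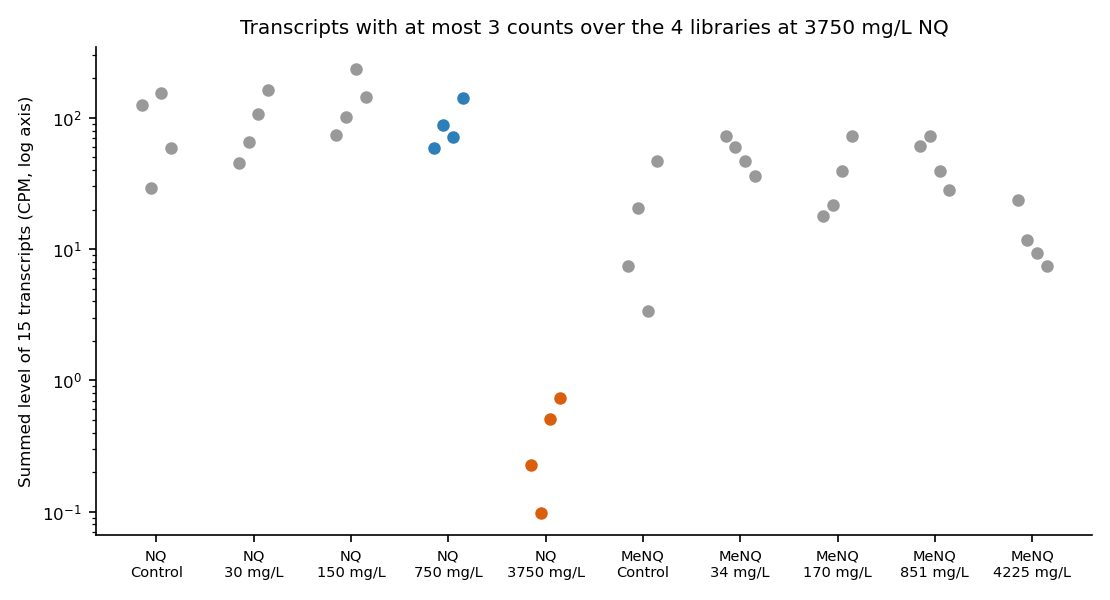
Summed level in CPM (log axis) of the 15 transcripts with at most 3 counts over the 4 libraries at 3750 mg/L NQ, for every NQ and MeNQ group (x axis); points are libraries. The orange points lie between 0.10 and 0.73 CPM, and the MeNQ control, with 3.39 to 46.6 CPM, is the widest of the other groups; the transcripts were chosen for being low at 3750 mg/L NQ.

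Methylnitroguanidine (MeNQ) differs from NQ by 1 added methyl group and was given at the same molar doses in an experiment of its own, with its own libraries. The question put to it here is whether the transcripts that moved between 7.2 and 36 mmol/L of NQ moved alike over the same step of MeNQ, 851 to 4225 mg/L, and 1 pair of compounds was compared. The MeNQ step had 127 calls among 13496 transcripts (0.941%), 50 higher (0.370%) and 77 lower (0.571%). The difference of the steps, tested in 1 model of 40 libraries, was called for 20 of 14068 transcripts (0.142%), 14 higher (0.0995%) and 6 lower (0.0426%). The 8 with a protein name are described here, and 3 of them are among the 115. The MeNQ libraries were in other sequencing lanes, with A, B and D of 851 mg/L in lane 7 and C in lane 6, and at 4225 mg/L A in lane 5, B in lane 7, and C and D in lane 6. Lane as a term, added after seeing the data, gave 28 called differences.

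LEG1 rose at the NQ step and was 38.97, 22.4, 28.2 and 27.95 CPM at 851 and 18.1, 22.3, 31.7 and 23.6 CPM at 4225 mg/L MeNQ, groups that overlap (-0.30 ± 0.22, adjusted p = 0.619). The difference of the steps was 1.57 (95% interval 0.97 to 2.17, adjusted p = 0.0176). Transmembrane 4 superfamily member 4 differed by -0.36 ± 0.19 at the MeNQ step (adjusted p = 0.423), and the difference of the steps was 1.29 (0.79 to 1.79, adjusted p = 0.0179). Cartilage-associated protein-like, which fell under NQ, differed by 0.34 ± 0.12 under MeNQ (adjusted p = 0.177), with a difference of -0.84 (-1.15 to -0.52, adjusted p = 0.0143). Each of these 3 differences lost the call without library A at 3750 mg/L NQ, with a largest adjusted p of 0.0662. That of transmembrane 4 superfamily member 4 also lost it with lane as a term (1.20, adjusted p = 0.0531), and the calls otherwise remained under the 20 alternatives tried.

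For 3 further transcripts the difference came with a fall in MeNQ. The v-fos homolog, an immediate-early transcription factor, was 626, 631, 433 and 236 CPM at 851 and 59.9, 25.2, 18.3 and 19.2 CPM at 4225 mg/L MeNQ. At 750 mg/L NQ it was 20.4, 22.7, 25.97 and 80.9 CPM, and at 3750 mg/L 43.3, 47.5, 39.4 and 34.0 CPM, so the NQ groups overlapped through library D. The NQ step was not called (0.14), except without that library (0.84, adjusted p = 0.0463). The difference was 4.13 (2.76 to 5.50, adjusted p = 0.0048). Levels did not follow the dose in the MeNQ series, with 534 to 1526 CPM in the control, 237 to 611 CPM at 34 mg/L and 30.6 to 169.9 CPM at 170 mg/L. The 851 mg/L libraries were thus all above those at 170 mg/L, while the NQ control had 14.5 to 22.7 CPM. A kruppel-like factor family protein (difference 1.55, 1.00 to 2.10, adjusted p = 0.0112) and sorcin, a calcium-binding protein (0.96, 0.64 to 1.28, adjusted p = 0.0048), likewise fell in MeNQ and were not called at the NQ step. The kruppel-like transcript was again uneven over the MeNQ doses, with 280 to 591 CPM in the control, 137 to 254 at 34, 75.9 to 106 at 170, 129 to 261 at 851 and 71.7 to 78.6 CPM at 4225 mg/L. For nucleoporin 62kDa, of the nuclear pore, the difference was -0.48 (-0.68 to -0.27, adjusted p = 0.0383), with neither step called, and leaving out any of 12 of the 16 libraries ended that call (largest adjusted p 0.121). The RIKEN cDNA 9030611N15 gene, for which no function is given here, was 656, 757, 688 and 575 CPM at 750 and 976, 877, 892 and 843 CPM at 3750 mg/L NQ, without overlap (0.42 ± 0.12, adjusted p = 0.13). At 851 mg/L MeNQ it was 732, 744, 706 and 706 CPM and at 4225 mg/L 525, 631, 583 and 602 CPM (-0.30 ± 0.08, adjusted p = 0.0874). The difference of the steps was 0.74 (0.43 to 1.04, adjusted p = 0.0299), and leaving out any of 6 of the 16 libraries ended that call (largest adjusted p 0.0915).

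**Figure D5:**
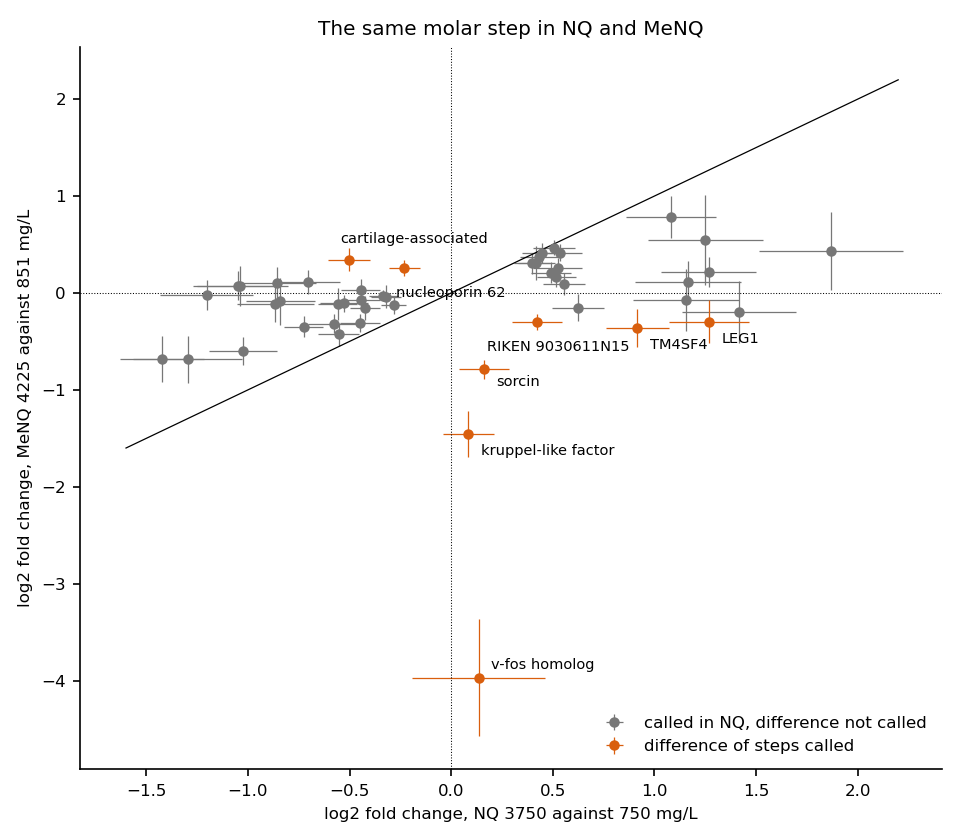
Log2 fold change of the MeNQ step, 4225 over 851 mg/L (y axis), against that of the NQ step, 3750 over 750 mg/L (x axis), for named transcripts called at the NQ step with more than 3 counts at 3750 mg/L (grey) and for the 8 with a called difference (orange); bars are standard errors and the solid line marks equality. The v-fos homolog is at -3.97 in MeNQ and 0.14 in NQ, and LEG1 at -0.30 and 1.27.

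For most other members of the NQ step the difference between the compounds was not called, and several intervals leave a wide range. RNF43 also rose at the MeNQ step (0.42 ± 0.09, adjusted p = 0.0283), with a difference of the steps of 0.13 (-0.15 to 0.41, adjusted p = 0.882). Mast cell protease 1A-like, dffa and unconventional myosin-Id-like were below 0 at the MeNQ step too, without a call. Their values there were -0.68 ± 0.24 (adjusted p = 0.184), -0.60 ± 0.14 (adjusted p = 0.0518) and -0.35 ± 0.11 (adjusted p = 0.137). Dopachrome tautomerase differed by -0.02 ± 0.15 at the MeNQ step, and the difference of the steps was -1.17 (-1.74 to -0.60, adjusted p = 0.0815). Tyrp1 gave -1.10 (-1.76 to -0.44, adjusted p = 0.176) and fibrinogen beta chain-like 1.06 (0.49 to 1.64, adjusted p = 0.109). Transformer-2 protein homolog beta gave -1.11 (-1.63 to -0.59, adjusted p = 0.0631). Urea transporter 2-like gave 0.71 (-0.42 to 1.84, adjusted p = 0.781), and allantoinase 0.31 (-0.32 to 0.93, adjusted p = 0.867). These intervals are not adjusted for the number of transcripts, and a value that misses the threshold does not show that the compounds act alike. Over the 24 complement and coagulation genes measured in both experiments the MeNQ step had 0 calls and a median of -0.10, and over the 7 pigment genes 0 calls and a median of -0.03, where the NQ medians were 0.65 and -0.86. Some other lists had like medians in both, with -0.28 in NQ and -0.31 in MeNQ for cytosolic ribosomal proteins (3 and 4 falls) and 0.45 and 0.41 for purine breakdown. Others had medians of opposite sign in NQ and MeNQ. Among these were cytochrome P450 families 1 to 3 (0.45 and -0.22), pancreatic enzymes (0.42 and -0.38) and DNA replication (-0.18 and 0.43). Whether a list's median differs between the compounds was not tested.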

How the data were processed

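Per the labels' protocols, poly-A RNA of whole tadpoles was made into stranded mRNA libraries, and nominal doses are given. The authors deposited estimated counts per transcript for each sequencing run, with bcl2fastq 1.8.4 and Salmon listed per the submitters' processing notes; for Salmon no version is given in those notes. The deposited per-library values are means of the runs. Here the runs of a library were summed and rounded, and all 20 NQ libraries were fitted in 1 model with 1 mean per group in edgeR 4.0.16 (R 4.3.3), with filterByExpr, TMM scaling and the quasi-likelihood F test. Standard errors are the log2 fold change divided by the square root of F. DESeq2 1.42.0 was an alternative. The procedure was also run on simulated counts drawn independently with the fitted spread and without lane effects. That run does not test the calls given here.

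Among the deposited runs, 1 has conflicting header lines (3750 mg/L A against control A) and was taken as control A, which the deposited per-library means bear out. The run names of 3750 mg/L A and C carry exchanged sample numbers. The header names were used, as in the deposited means, and the exchange was tried as an alternative (136 calls). As named in the headers, the runs of a library correlated at 0.908 in A and 0.918 in C. What is said of libraries A and C rests on the header names. Labels and series text differ on some doses of both compounds; label values are used.

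The rule for named genes took the 12 largest rises and falls and the 8 smallest p among named, non-overlapping calls, up to 4 members per list, and the 5 largest step differences in each direction; further named calls were added after their values were seen, and 1 named call is not reported here. In a list the transcript with the highest mean count stands for a protein name. The comparison, the members and the lists were chosen with earlier results of these data known. Precision is limited by 4 libraries a group and library totals of 6610048 to 15986953 counts.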

Additional observations from a re-analysis of the deposited data

Results flagged for a closer look

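Of 222 groups of 4 libraries looked at (111 transcripts at 2 doses), 23 held 1 library that stood apart by Dixon's criterion at the 95% level, and a rate of about 5% comes by chance. Among called transcripts at 750 mg/L, ULK2-like kinase had 34.5 CPM in B (others 26.3 to 27.1), COP9 signalosome subunit 6 had 376 CPM in A (others 419 to 423), eukaryotic translation initiation factor 3 subunit 8 had 1255 CPM in D (others 1546 to 1587), dispanin 2b-like had 3.92 CPM in C (others 14.9 to 16.8), and atp5a1 had 15.6 CPM in D (others 0.252 to 2.58). At 3750 mg/L, enoyl-CoA delta isomerase 2 had 220 CPM in C (others 310 to 327) and cytosolic purine 5'-nucleotidase 229 CPM in B (others 248 to 250.3). Nearly absent transcripts stood apart there by single counts, with 0.183 CPM for atp5a1 and 0.0913 CPM for centrosomal protein of 135 kDa in D and 0.114 CPM for cathepsin L2 in A, the others being 0.

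Uncalled transcripts also had single libraries apart at 750 mg/L. PPAR gamma had 66.3 CPM in B (others 89.8 to 92.5), the phosphodiesterase delta subunit-like transcript 12.3 CPM in B (others 10.1 to 10.4), proteasome activator subunit 2-like 365 CPM in B (others 285 to 294) and interferon regulatory factor 8 28.2 CPM in A (others 36.2 to 37.1). Library D stood apart for purine nucleoside phosphorylase at 29.5 CPM (others 15.1 to 17.5), Rpl12 at 38.6 CPM (others 0 to 5.26), proteasome subunit beta type-5-like at 603 CPM (others 430.4 to 439.8) and the v-fos homolog at 80.9 CPM (others 20.4 to 25.97). At 3750 mg/L the values were 0.821 CPM for Rpl12 in D (others 0), 1709 CPM for hemoglobin subunit beta-2-like in D (others 163 to 409), 20.2 CPM for desmoglein-2-like in B (others 13.8 to 14.5), 20570 CPM for actin, alpha skeletal muscle 3 in B (others 14230 to 14980) and 31.3 CPM for aquaporin-4-like in A (others 38.1 to 39.4).

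The NQ and MeNQ steps differed, by edgeR's test of the difference, for LEG1 (1.57), transmembrane 4 superfamily member 4 (1.29), cartilage-associated protein-like (-0.84), the v-fos homolog (4.13), the kruppel-like factor (1.55), sorcin (0.96), the RIKEN cDNA 9030611N15 gene (0.74) and nucleoporin 62kDa (-0.48).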

How the results depend on the processing

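The 115 changes kept their direction in each alternative where they were tested, but the number called moved widely. The alternatives reuse the libraries that gave the calls, so the kept direction is no separate support. The number called was 439 with the DESeq2 Wald test, 6 when only the 8 libraries were fitted and 70 with sequencing lane as a term. It was 3 with only the lane 1 libraries of both doses compared, 51 at a minimum of 2-fold, and 21 to 166 with 1 library left out. The cause was not tested. DESeq2 size factors gave 115, no filter on low counts 86, the 16 exposed libraries 77, the deposited run means 116, the deepest run 88, exchanged runs of 3750 mg/L A and C 136, counts summed by protein name 121, and 100 remained without nearly absent transcripts. The lane alternatives and the last were added after seeing the data. The replicate block on letters A to D gave 111 calls for the step and 32 for the difference of the NQ and MeNQ steps, against 20; lane as a term gave 28 differences. Same-letter libraries did not deviate together (correlations -0.01, -0.02, -0.09 and 0.05), so the letters were not taken as pairs. That difference had 3 to 53 calls with 1 library left out: 3 without 3750 mg/L NQ A, 53 without B, 9 without 750 mg/L NQ D or 4225 mg/L MeNQ B, and 7 without 4225 mg/L MeNQ D. At the lower steps the Wald test called 104 (750 against 150), 408 (150 against 30) and 32 (30 mg/L against the control). The uncalled v-fos value, 0.14, ran from -0.0552 to 0.8363 with 1 library left out, below 0 without 750 mg/L A, B or C and called without D (adjusted p = 0.0463), and that of the kruppel-like factor was -0.0589 in lane 1 libraries. Counts of 0 to 3 limit what can be said of transcripts near absence.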
